A study of Oryza sativa Japonica Group with 8 samples.

Results

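The leaf transcriptome of rice plants on day 2 without water was set against that of well-watered plants. Rice of the japonica variety Ilmi was grown in a greenhouse in soil pots with 3 plants each. Watering stopped when the plants were 5 weeks old, with the soil brought to about 75% water, per the labels. The series holds 8 libraries, with leaves taken after 1, 2 or 3 days without water or from well-watered controls, and each of these 4 treatments has 1 library of total RNA and 1 of mRNA. The comparison rests on 4 of the 8 libraries: day 2 and well-watered, each with 1 total RNA and 1 mRNA library. There is therefore 1 library per group and library kind. No test across plants was possible, and the labels used here give neither the number of plants in a library, nor the hour of harvest, nor whether both kinds were made from the same RNA. Genes were the unit of description. Of 27626 genes found in both kinds of library, 18113 had a mean of at least 1 FPKM over the 4 treatments in each kind (FPKM counts sequenced fragments relative to transcript length and to all mapped fragments), and these are called measured below. The rule for calling a gene higher or lower was that its FPKM + 1 differed at least 2-fold from the well-watered library in both kinds, in the same direction.

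Water deficit in leaves acts in large part through the hormone abscisic acid (ABA). ABA bound by its receptors blocks clade A protein phosphatases 2C, which frees SnRK2 kinases to act on transcription factors of the bZIP family, and these bind the promoters of genes for protective proteins such as dehydrins. A leaf that loses water for days also closes its stomata, slows photosynthesis and, in time, takes apart chloroplasts and exports their nitrogen, a programme it shares with senescence.

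On day 2, 2627 of the 18113 measured genes were higher (14.5%) and 2008 were lower (11.1%) than in well-watered leaves. A difference of at least 8-fold was reached by 361 genes on the higher side (1.99%) and by 153 on the lower side (0.845%). The gene in the middle of the distribution stood at a log2 ratio of 0.11 in total RNA and 0.06 in mRNA. By the same rule, calls on day 1 numbered 1256 to the higher side (6.93%) and 446 to the lower (2.46%). Day 3 had 3290 (18.2%) to the higher side and 4699 (25.9%) to the lower. All drought days are set against the same well-watered libraries, so counts and ratios of different days are given side by side and share that reference. Genes called higher on day 2 had median log2 ratios of 1.04, 1.77 and 2.22 on days 1, 2 and 3 in total RNA, and of 1.05, 1.77 and 2.14 in mRNA. Genes called lower on day 2 stood at -0.69, -1.64 and -2.57 in total RNA and at -0.72, -1.79 and -2.84 in mRNA.

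The most abundant genes were largely those of well-watered leaves in total RNA, where 9 of the 10 highest genes on day 2 were also among the 10 highest when watered, while in mRNA 5 of 10 were. The share of FPKM held by the 10 most abundant genes of a library was 12.3% on day 2, against 24.3% in well-watered total RNA, and 6.04% against 11.8% in mRNA. Ranks 1, 3 and 4 of day 2 total RNA were genes described as Rubisco large subunit, and rank 10 as photosystem II protein D1. None of them was among the 10 highest of day 2 mRNA. The gene at rank 1, Os01g0791033, had 25951 FPKM on day 2 against 55881 when watered, and so weighs on both shares of total RNA. Genes called higher held 30.9% of all FPKM in the day 2 total RNA library, and genes called lower held 32.7% of the well-watered one. The call rule chose these genes for being high in those libraries, so both shares only describe the calls. The pseudocount of 1 FPKM understates the differences of weakly expressed genes.

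The library kinds gave similar ratios. Across the 18113 genes, which are not independent replicates, the log2 ratios of total RNA and of mRNA correlated with Pearson's r of 0.968, and the SD of the difference between both ratios was 0.314. In total RNA alone 3013 genes were at least 2-fold higher and 2174 lower, and in mRNA alone 2910 and 2535. Only 3 genes were called in opposite directions by the kinds. FPKM summed to 694056 and 685499 in the day 2 total RNA and mRNA libraries, against 755487 and 716082 in the well-watered ones. Total fragments per library are not in the labels used here. Depth was estimated from the most common product of FPKM and transcript length among values below 1 FPKM. Only 2.64% to 4.87% of these low values lay at that product. If it marks a single fragment, 1 FPKM at the median transcript length stood for 23.8 to 35.7 fragments over the 8 libraries. Calls near that level carry the largest counting error.

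**Figure D1:**
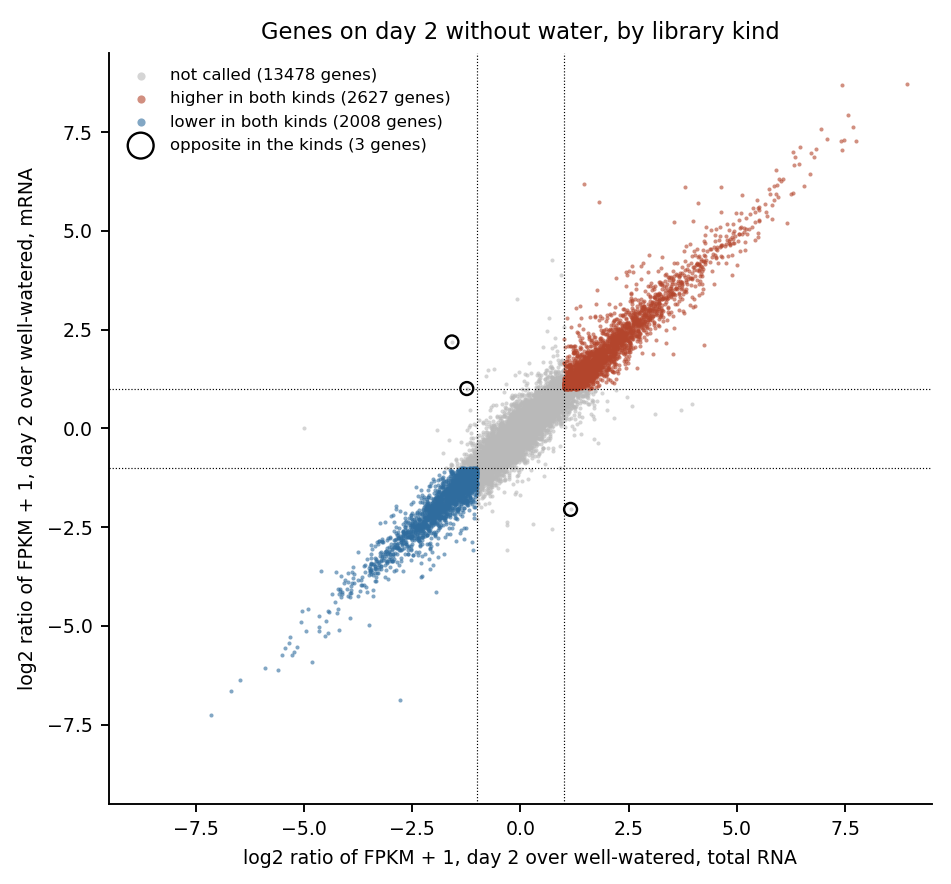
Each point is 1 of the 18113 measured genes, with its log2 ratio of FPKM + 1 between day 2 and well-watered leaves in total RNA on the x axis and in mRNA on the y axis. Red points are the 2627 genes higher in both kinds, blue points the 2008 lower in both kinds, dotted lines mark 2-fold, and the circled points are the 3 genes with opposite calls.

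The labelled tissue was checked against leaf markers. All 6 measured leaf markers (small subunits of Rubisco, a chlorophyll a/b-binding protein, carbonic anhydrase and Rubisco activase) were abundant in every well-watered library, and 5 of them were called lower on day 2. The Rubisco small subunit gene Os12g0291100 was at 3115 and 1752 FPKM on day 2 (total RNA, then mRNA), against 16319 and 9757 FPKM in well-watered leaves. Rubisco activase Os11g0707000 was at 3559 and 2319 FPKM on day 2, against 6976 and 6190 FPKM, and was not called. In such bulk samples, fewer cells of a type and less RNA per cell cannot be told apart. Seed storage protein genes, markers of another tissue, were measured in 4 of 13 members and summed to 11.5 and 17.6 FPKM on day 2 (total RNA and mRNA), against 8.12 and 12.8 FPKM in well-watered leaves. Of the 4, the glutelin family gene Os03g0188500 was called higher, at 2.52 and 8.10 FPKM against 0.322 and 0.996. The list of root and pollen markers matched no gene in the data, so those tissues were not checked. Of 3 reference genes none was called, with log2 ratios of -0.24 and -0.29 for a ubiquitin gene, 0.43 and 0.44 for elongation factor 1-alpha, and 1.09 and 0.87 for actin 1.

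Clock genes also differed between the libraries, and their level depends on the hour of harvest. LHY (Os08g0157600), which peaks around dawn, stood at 71.8 and 136 FPKM on day 2 (total RNA, then mRNA, here and below), against 34.8 and 64.7 in well-watered leaves. PRR1 (Os02g0618200), a clock gene of the evening, was at 1.83 and 4.82 FPKM on day 2, against 14.0 and 33.5. PRR95 (Os09g0532400) was at 25.1 and 45.0 FPKM, against 125 and 266. These 3 of 8 clock genes were called on day 2, and none of the 3 was called on day 1 or day 3. LHY lost its call when the libraries were scaled by median ratios and in the quantile-normalized values. GIGANTEA was at 292 and 738 FPKM on day 2, against 194 and 529. The part of the clock, or of a difference in harvest time, in the results that follow was not tested.

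The ABA pathway was followed from hormone to target. Among 8 genes listed as making or degrading ABA, the calls were 3 higher and 3 lower. The direction differed between genes named for the same enzyme. NCED enzymes cut carotenoids, the committed step of ABA synthesis. NCED4 (Os07g0154100, chromosome 7, 2870686 to 2872829) had 20.4 and 20.1 FPKM on day 2, against 0.199 and 0.259 in well-watered leaves. NCED3 (Os03g0645900) had 12.7 and 11.97 FPKM, against 2.37 and 2.37. NCED1 (Os02g0704000, chromosome 2, 29026099 to 29028176) went the other way, with 82.3 and 83.2 FPKM on day 2 against 1056 and 1323 FPKM. NCED5 (Os12g0617400) had 1.36 and 1.10 FPKM, against 9.03 and 9.31. Of these 4, NCED1 had the highest level in both groups. The symbols were recalled and checked only against gene descriptions, so the part of each gene in ABA synthesis was not tested. Among the 8'-hydroxylases that break ABA down, ABA8ox1 was higher, at 6.82 and 8.65 FPKM against 2.91 and 3.45, a log2 ratio of 1.00 and 1.12 that lies at the limit of the rule and was under it with scaled libraries. ABA8ox3 was lower, at 2.09 and 3.56 FPKM against 14.4 and 22.9. Zeaxanthin epoxidase (ZEP), an earlier enzyme of the route, was not called, at 357 and 334 FPKM against 671 and 614.

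Clade A protein phosphatases 2C, which hold the pathway in check, were higher in 7 of 9 members and lower in none, with list medians of 2.35 in total RNA and 2.21 in mRNA (log2). PP2C51 (Os05g0572700) had 54.1 and 78.1 FPKM on day 2, against 0.577 and 0.308 in well-watered leaves. PP2C68 had 66.02 and 74.4 FPKM, against 6.504 and 6.06, and PP2C30 had 112 and 89.7 FPKM, against 12.2 and 10.6. The other two members, PP2C08 and PP2C53, were not called, and PP2C53 had 7.33 and 25.4 FPKM on day 2 against 7.31 and 25.3. Of the 10 SnRK2 kinases (named SAPK in rice), 4 were higher and none lower. SAPK1 had 143 and 154 FPKM, against 21.2 and 23.2, and SAPK6 had 127 and 117 FPKM, against 29.5 and 27.0. SAPK3 had log2 ratios of 1.63 and 1.63, and SAPK7 of 1.19 and 1.11. SAPK9 was not called on day 2, at 2.65 and 2.81 FPKM against 4.05 and 4.99.

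Transcription factors linked with drought in rice numbered 15, of which 9 were higher and 2 lower. The list medians were 1.49 and 1.74, or 0.89 and 1.08 with a pseudocount of 5 FPKM. The ABA-responsive bZIP23 (Os02g0766700) had 104 and 81.5 FPKM on day 2, against 15.4 and 11.2 in well-watered leaves. The bZIP factors TRAB1 and bZIP72 were not called, and bZIP72 had 30.6 and 49.7 FPKM against 32.2 and 60.3. SNAC1 (Os03g0815100), a NAC factor of guard cells, had 332 and 215 FPKM, against 37.1 and 22.7. NAC6 had 618 and 616.5 FPKM, against 142 and 139. NAC10 (Os11g0126900) had 80.5 and 111 FPKM, against 0.855 and 1.06, the largest ratio of this list. DREB2A had 23.9 and 25.8 FPKM, against 3.07 and 3.07. The cold-linked factors DREB1A and DREB1B were the 2 lower members, and DREB1B had 1.24 and 0.453 FPKM against 8.42 and 5.21.

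Late embryogenesis abundant (LEA) proteins and dehydrins, hydrophilic proteins that protect membranes and enzymes in drying cells, were higher in 17 of the 24 measured members and lower in none (31 are in the files). The list medians were 2.01 in total RNA and 2.13 in mRNA. They moved to 4.04 and 4.34 with a pseudocount of 0.1 FPKM and to 1.03 and 1.38 with one of 5 FPKM. RAB21 (Os11g0454300, chromosome 11, 15342877 to 15343671 of the build IRGSP-1.0) had 473 and 418.5 FPKM on day 2, against 1.497 and 0.726 in well-watered leaves. The LEA-like gene Os05g0542500 (chromosome 5, 26927607 to 26928882) had 343 and 666 FPKM, against 1.01 and 0.609. The dehydrin gene Os11g0451700, described as DHN1, had 90.4 and 66.3 FPKM, against 0.163 and 0.0708. In these 3 genes both day 2 libraries lay far above both well-watered libraries, which is set by choosing genes with large ratios in both kinds. RAB21 stands at the end of a row of dehydrin genes on chromosome 11 (15320288 to 15343671), all of them called higher. RAB16B (Os11g0454200) had 58.9 and 45.8 FPKM, against 0.393 and 0.245, RAB16C (Os11g0454000) had 13.3 and 19.2 FPKM, against 2.60 and 3.36, and RAB16D (Os11g0453900) had 3.04 and 2.95 FPKM on day 2 and was listed at 0 in both well-watered libraries. Genes that overlap or resemble each other share reads, so values within such a row are less certain than those of single genes. RAB21 was at 49.3, 473 and 6737 FPKM on days 1, 2 and 3 in total RNA, so that its day 3 level was far above that of day 2.

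Other stress proteins stood among the 12 described genes with the highest ratios. SalT (Os01g0348900), a lectin-like protein induced by salt, had 874 and 950 FPKM on day 2, against 6.12 and 3.95 in well-watered leaves. Os03g0820500, similar to the cold-induced wheat gene WCOR719, had 2059 and 1547 FPKM, against 17.6 and 12.1. Os03g0286900, similar to the low-temperature gene lt101.2, had 664 and 685 FPKM, against 5.33 and 4.49. The class III chitinase gene Os05g0247100 had 509 and 485 FPKM, against 2.00 and 2.15. Os02g0649300, whose description names only a repeated DNA fragment, had 388 and 244 FPKM, against 1.24 and 0.849. All 5 were in the range of abundant transcripts on day 2 and within a few FPKM to about 18 FPKM when watered.

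**Figure D2:**
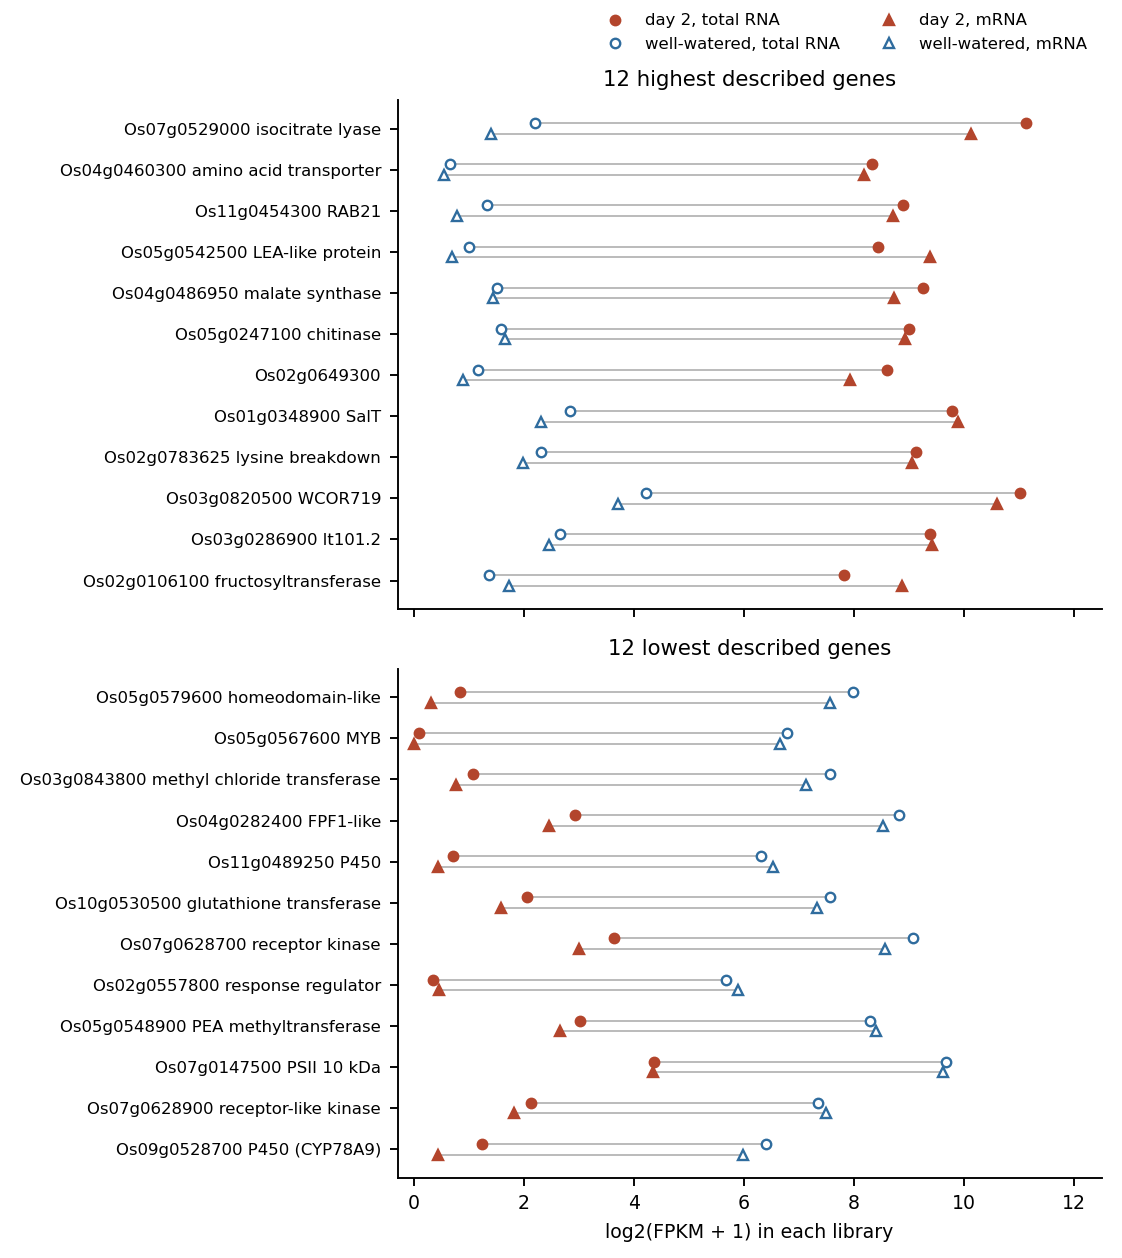
For the 12 described genes with the highest and the 12 with the lowest ratios, the x axis gives log2(FPKM + 1) in each of the 4 libraries, with filled red symbols for day 2 and open blue symbols for well-watered leaves, circles for total RNA and triangles for mRNA. Both kinds of library place each gene alike, which is set by choosing genes by the smaller ratio among those called in both kinds. Isocitrate lyase shows the widest gap, with log2 ratios of 8.94 and 8.72.

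The enzymes of the glyoxylate cycle, which turns the acetyl units of broken-down lipid into precursors of sugar, had the largest ratios of all lists. Isocitrate lyase (Os07g0529000, chromosome 7, 20691213 to 20693521) had 2243 and 1110 FPKM on day 2, against 3.58 and 1.64 FPKM in well-watered leaves. In total RNA it ranked 13 among all genes on day 2. Malate synthase (Os04g0486950, chromosome 4, 24325769 to 24328250) had 607 and 425 FPKM, against 1.84 and 1.72. In total RNA, isocitrate lyase and malate synthase stood at 342 and 138 FPKM on day 1 and at 1713 and 472 FPKM on day 3. PEP carboxykinase, which leads from the cycle towards sugar, was not called, at 119 and 136 FPKM on day 2 against 64.8 and 77.9. Upstream of the cycle, 14 of 43 measured genes of fatty acid oxidation and peroxisomes were higher and 6 lower. Acyl-CoA oxidase 4 (Os05g0163700), the entry enzyme of peroxisomal oxidation of short chains in Arabidopsis, had 131 and 224 FPKM, against 10.6 and 17.0. The multifunctional protein Os02g0274100, which carries the next steps, had 393 and 522 FPKM, against 51.5 and 70.5.

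Genes of sugar metabolism and transport were called in both directions. Of 51 measured genes of sucrose, fructan and starch metabolism, 14 were higher (27.5%) and 5 lower (9.80%). Of all measured genes, 14.5% were higher and 11.1% lower, so the lower share of this list was near that of all genes. The fructosyltransferase-like gene Os02g0106100 had 224 and 465 FPKM on day 2, against 1.56 and 2.32 in well-watered leaves. Its total RNA level was 121 FPKM on day 1 and 18.6 FPKM on day 3, so it was highest on day 2. The beta-amylase gene Os03g0351300, for an enzyme of starch breakdown, had log2 ratios of 3.86 and 3.65 and stood at 122 and 74.8 FPKM on day 2. Granule-bound starch synthase Ib (Os07g0412100) was lower, at 65.0 and 43.9 FPKM against 362 and 319. The other lower members were a starch phosphorylase (Os01g0851700), a large subunit of ADP-glucose pyrophosphorylase (Os03g0735000), a sucrose-phosphate synthase (Os11g0236100) and, taken in only by the wording of its description, an aspartate carbamoyltransferase (Os08g0248800). Among 31 sugar transporters 9 were higher (29.0%) and 6 lower (19.4%). Os02g0513100, of the MtN3 (SWEET) family of sugar exporters, had 119 and 144 FPKM, against 0.473 and 0.236. SWEET3a (Os05g0214300) had 2.76 and 2.43 FPKM on day 2, with log2 ratios of -3.45 and -3.58. Trehalose, galactinol and raffinose genes were split, with 4 higher and 4 lower of 11 measured. A trehalose-6-phosphate synthase (Os09g0376800) had 51.0 and 29.4 FPKM, against 9.06 and 4.96, and a trehalose-6-phosphate phosphatase (Os08g0409100) had 22.3 and 29.97 FPKM, against 104.98 and 146.

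Amino acid breakdown was higher in 11 of 24 measured genes and lower in 3. Lysine is degraded by a bifunctional lysine-ketoglutarate reductase and saccharopine dehydrogenase. Os02g0783625 (chromosome 2, 33253386 to 33257355), described as that enzyme, had 561 and 531 FPKM on day 2, against 3.93 and 2.93 in well-watered leaves. Its neighbour Os02g0783700 (33260120 to 33264235), with the same description, had 301 and 204 FPKM, against 1.91 and 1.37. The branched-chain aminotransferase gene Os03g0231600 had 72.6 and 77.5 FPKM, against 7.02 and 7.64. The 3 lower genes were an asparaginase (Os03g0597600) and a pair described as of the saccharopine dehydrogenase family (Os11g0140700 and Os12g0137200). Of 61 amino acid and peptide transporters, 19 were higher and 10 lower. The transporter gene Os04g0460300 had 321 and 288 FPKM, against 0.58 and 0.453, the second highest of all described genes by the smaller of both log2 ratios (7.63). Asparagine synthetase (Os03g0291500), which makes a transport form of nitrogen, had 59.6 and 78.6 FPKM on day 2, against 0.107 in well-watered mRNA, and was listed at 0 in well-watered total RNA.

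Proline, a compatible solute of drying leaves, is made from glutamate by P5CS or from ornithine by ornithine aminotransferase (OAT) and is broken down by proline dehydrogenase (ProDH). P5CS1 (Os05g0455500) had 59.0 and 75.1 FPKM on day 2, against 9.61 and 11.9 in well-watered leaves. OAT (Os03g0643300) had 329 and 281 FPKM, against 21.6 and 19.6. ProDH (Os10g0550900) was lower, at 8.78 and 6.20 FPKM against 37.8 and 27.2. The other 3 genes of the list, P5CS2, P5CR and P5CDH, were not called.

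All 6 genes for chlorophyll breakdown and leaf senescence were higher, with medians of 2.99 in total RNA and 2.93 in mRNA. SGR (Os09g0532000, chromosome 9, 20868846 to 20871077), the stay-green protein that removes magnesium from chlorophyll, had 489 and 396 FPKM on day 2, against 42.6 and 31.8 in well-watered leaves. NYC1, a reductase of chlorophyll b, had 760.5 and 737 FPKM, against 100.7 and 104. NYC3, a hydrolase required for chlorophyll loss, had 954 and 1310 FPKM, against 181 and 159. PAO and RCCR open and reduce the chlorophyll ring. PAO had 341 and 447 FPKM, against 39.5 and 72.3, and RCCR had 227 and 366 FPKM, against 17.6 and 31.0. The senescence factor NAP had the smallest ratio of the 6, with 66.2 and 51.1 FPKM against 19.6 and 18.9. Together the 6 genes held 0.409% of FPKM in total RNA on day 2, against 0.053% in well-watered leaves.

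Genes for the photosynthetic apparatus were lower. Of 16 measured light-harvesting genes 13 were lower and none higher, with medians of -2.02 and -2.17. Their share of FPKM was 1.19% on day 2, against 5.31% in well-watered total RNA, and 1.11% against 5.37% in mRNA. The chlorophyll a/b-binding gene Os01g0600900 (chromosome 1, 23607363 to 23608541) had 425 and 325 FPKM on day 2, against 6501 and 5877. CP24 (Os04g0457000), an antenna protein of photosystem II, had 51.3 and 51.4 FPKM, against 956 and 952.5. Of 34 photosystem and electron transport genes 30 were lower and 3 higher, with medians of -2.27 and -2.38. The 3 higher ones were the 22 kDa protein of photosystem II (Os04g0690800, 285 and 471 FPKM against 113 and 169), which dissipates excess light as heat, a ferredoxin-NADP reductase (Os07g0147900, 116 and 139 FPKM against 29.4 and 37.6) and a 10 kDa protein of photosystem II (Os07g0147550). The last has a neighbour with the same description on chromosome 7 that moved the opposite way. Os07g0147500 (2454338 to 2455636) had 19.6 and 19.3 FPKM on day 2, against 819 and 785 in well-watered leaves, while Os07g0147550 (2456969 to 2458136) had 74.6 and 66.9 FPKM, against 1.29 and 1.23. Fragments that match both copies could be assigned to either, so the values of this pair are uncertain.

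The dark reactions, pigment synthesis and plastid translation followed. In the Calvin cycle and photorespiration 16 of 28 measured genes were lower and 1 higher (a transketolase-like gene, Os04g0266900), with medians of -1.30 and -1.50. The glycine cleavage subunits Os10g0516100 and Os04g0623800, which act in photorespiration, had log2 ratios of -3.92 and -4.15, and of -3.84 and -3.90. Chlorophyll and heme synthesis was lower in 12 of 21 genes and higher in none. Protochlorophyllide reductase B (Os10g0496900) had 25.4 and 27.6 FPKM on day 2, against 208 and 218 in well-watered leaves. Plastid ribosomal proteins were lower in 26 of 54 genes and higher in 1 (Os03g0856500), with medians of -0.67 and -0.95, and 33 of 183 pentatricopeptide repeat genes, which mostly serve organelle RNA, were lower and 3 higher. Cytosolic ribosomal proteins were apart from these, with none lower and 4 higher of 170 and medians of 0.42 and 0.47. The clock values given above stand beside these photosynthesis genes as well, since many of them cycle over the day.

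**Figure D3:**
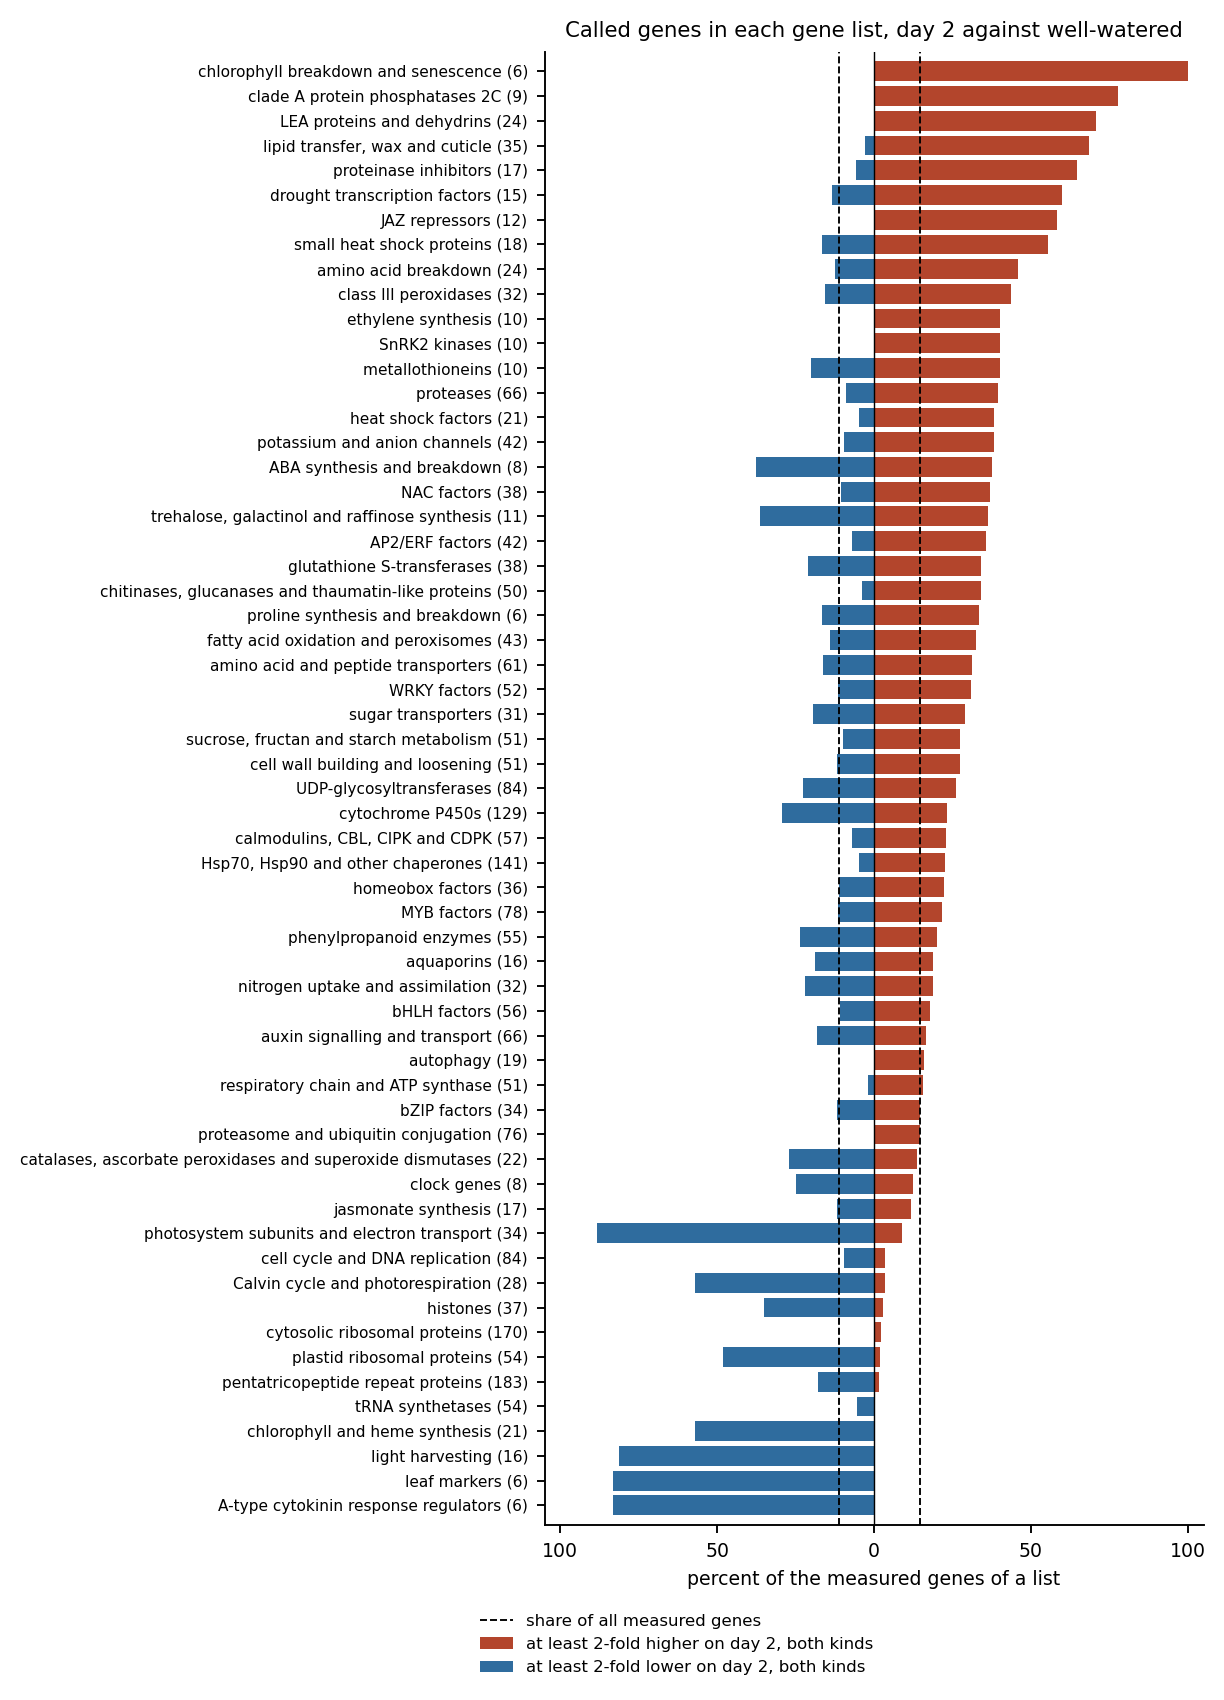
For each gene list with at least 6 measured genes (number in brackets), bars to the right give the percent of its genes called higher on day 2 and bars to the left the percent called lower, with dashed lines at the shares over all measured genes, 14.5% and 11.1%. Chlorophyll breakdown, clade A phosphatases and LEA proteins lie at the top, and light harvesting, leaf markers and A-type response regulators at the bottom.

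Of 66 measured proteases, which break down proteins, 26 were higher (39.4%) and 6 lower (9.09%). The papain-like protease gene Os04g0650000, described as oryzain alpha, was the fifth most abundant gene of the day 2 total RNA library, at 3635 FPKM in total RNA and 3035 in mRNA, against 691 and 642 in well-watered leaves. The cysteine protease gene Os08g0556900 had 490 and 318 FPKM, against 11.0 and 8.25, and the serine carboxypeptidase III gene Os02g0114200 had 234 and 192 FPKM, against 7.31 and 4.94. Proteinase inhibitors were higher as well, in 11 of 17 measured members, and lower in 1, oryzacystatin-I (Os01g0803200, 313 and 363 FPKM against 642 and 756). The wound-induced inhibitor Os01g0132000 had 636 and 584 FPKM, against 9.12 and 6.33. A row of 5 adjacent genes on chromosome 1 (1341368 to 1366432), most of them Bowman-Birk trypsin inhibitors, was called higher in full. Proteasome and ubiquitin conjugation genes were higher in 11 of 76 and lower in none, a share of higher genes close to that of all measured genes. Their medians were 0.69 and 0.63. Among them the ubiquitin-conjugating enzyme OsUBC5b (Os02g0261100) had 129 and 227 FPKM, against 23.3 and 41.2. Of 19 autophagy genes 3 were higher (Os01g0614900, Os03g0644000 and Os01g0200000) and none lower, a share of 15.8% that is also close to that of all measured genes. Os01g0200000 lost its call with a pseudocount of 5 FPKM and in the quantile-normalized values.

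Chaperones included genes whose level on day 2 was above that of every other library. Small heat shock proteins, which keep unfolding proteins soluble, were higher in 10 of 18 measured members and lower in 3 (Os05g0500500, Os07g0173100 and Os07g0517100), with medians of 1.83 and 2.00. Without the filter on low values, 32 members had medians of 0.05 and 0.07 and the same counts of calls. Day 1 had medians of 1.01 and 0.96 for this list, and day 3 had 0.18 and 0.24. Of the 141 measured Hsp70, Hsp90 and other chaperones, 32 were higher (22.7%), 7 lower (4.96%) and 102 not called on day 2. Their medians were 0.32 and 0.30. Across all measured genes, 56 stood at least 2-fold above every other library of their kind on day 2 (0.309%) and 13 stood at least 2-fold below (0.0718%). Of the 56, 4 were among the 18 small heat shock proteins and 9 among the 141 measured Hsp70, Hsp90 and other chaperones. The gene with the widest margin was Os02g0758000, a mitochondrial small heat shock protein (chromosome 2, 31920854 to 31922068). It had 8.95 FPKM in well-watered leaves and 106, 561 and 35.3 FPKM on days 1, 2 and 3 in total RNA, and 11.5, 120, 630 and 32.3 FPKM in mRNA. Os08g0500700, an Hsp90 described as heat shock protein 82, had 177, 534, 1420 and 337 FPKM in total RNA over the same series. The heat stress factor Os09g0526600 had 43.6, 69.7, 193 and 75.9 FPKM, and the factor Spl7 (Os04g0568700) had 0.735, 4.61, 17.8 and 7.402 FPKM. The DnaJ-like gene Os05g0562300 had the largest ratio of the chaperone list on day 2, at 133 and 267 FPKM against 4.81 and 10.5. Heat shock factors were higher in 8 of 21 members and lower in 1 (Os01g0625300). Air and leaf temperature at harvest are not in the labels used here. A rule with day 2 above every other library chose these genes, and their levels are a description.

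**Figure D4:**
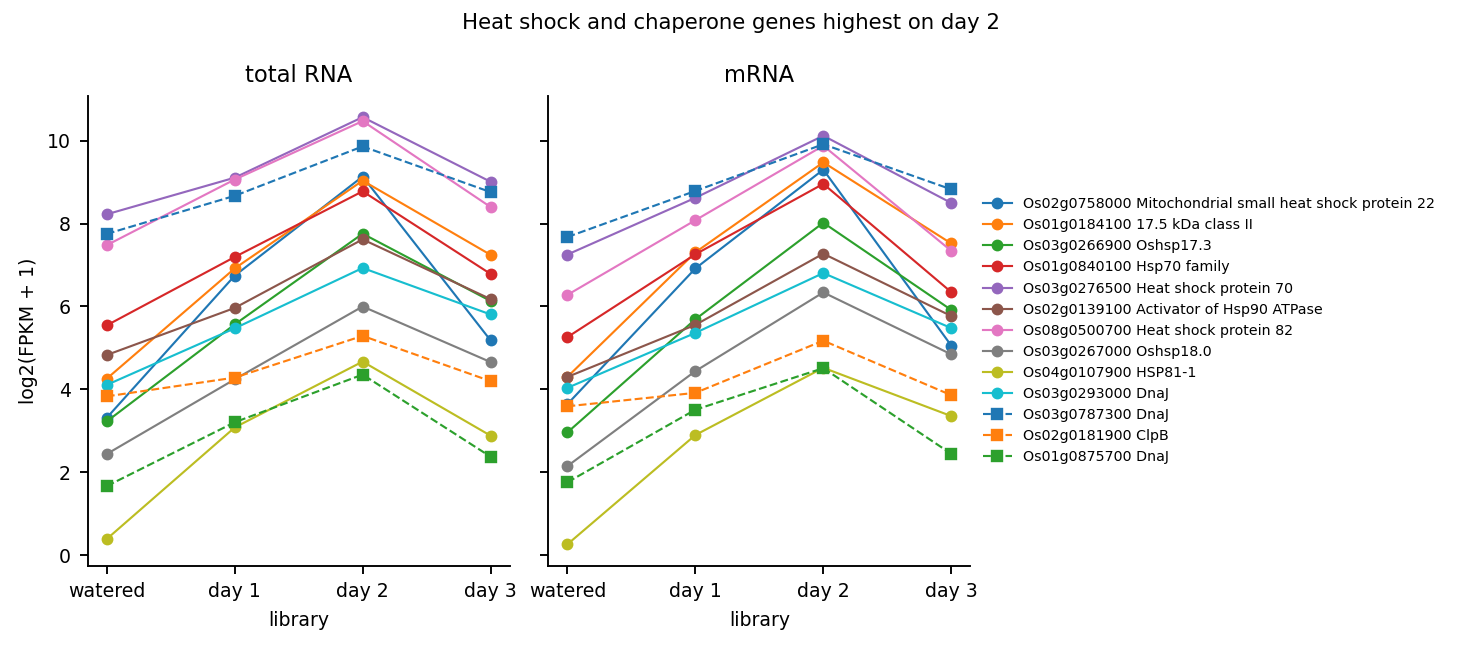
The x axis runs over the well-watered library and days 1, 2 and 3, and the y axis gives log2(FPKM + 1) in total RNA (left) and mRNA (right) for the 13 chaperone and small heat shock genes that were at least 2-fold above every other library on day 2. The genes were chosen for this maximum, so the shared peak is set by the choice.

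Transcription factor families differed in how many members were called. Of all measured genes, 14.5% were higher and 11.1% lower. NAC factors were higher in 14 (36.8%) and lower in 4 (10.5%) of 38 measured genes. AP2/ERF factors were higher in 15 (35.7%) and lower in 3 (7.14%) of 42, and WRKY factors in 16 (30.8%) and 6 (11.5%) of 52. The NAC gene Os12g0123700 had 117 and 141 FPKM on day 2, against 1.97 and 2.29 in well-watered leaves, and Os07g0683200 had 195 and 345 FPKM, against 5.88 and 12.49. The NAC gene Os08g0200600 had the largest drop of its family, at 6.27 and 7.47 FPKM against 106 and 104. Among AP2/ERF genes Os03g0183000, similar to RAP2.6, had 54.5 and 40.8 FPKM, against 2.02 and 1.90. The WRKY gene Os05g0322900, described as WRKY45, had 10.6 and 5.56 FPKM, against 123 and 70.01. MYB factors were higher in 17 (21.8%) and lower in 9 (11.5%) of 78. The counts were 10 (17.9%) and 6 (10.7%) of 56 for bHLH factors, and 8 (22.2%) and 4 (11.1%) of 36 for homeobox factors. The lower shares of these families, and the higher share of bHLH factors, lay near those of all genes. HOX22 (Os04g0541700), a homeodomain-leucine zipper protein, had 387 and 423 FPKM, against 41.5 and 46.2. bZIP factors as a whole were near the shares of all genes, with 5 higher (14.7%) and 4 lower (11.8%) of 34. One of the 4 lower genes, Os01g0279100, also carries the description of a magnesium-protoporphyrin IX monomethyl ester cyclase, an enzyme of chlorophyll synthesis, so its place in this list is uncertain. It had 300.3 and 222 FPKM, against 1397 and 1058. It was not in the list for chlorophyll and heme synthesis.

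Among hormone genes, A-type response regulators are induced by cytokinin and damp its signal. Of 6 measured, 5 were lower and none higher, with medians of -4.54 and -4.34, or -1.95 and -2.69 over 9 genes without the filter. Os02g0557800 had 0.268 and 0.374 FPKM on day 2, against 50.2 and 58.1 in well-watered leaves, Os12g0139400 had 0.965 and 0.637 FPKM, against 59.5 and 55.8, and Os01g0952500 had 2.46 and 1.56 FPKM, against 61.6 and 43.4. The other two, Os11g0143300 and Os04g0673300, had log2 ratios of -4.90 and -4.56, and of -1.95 and -1.80. Their list medians were already -3.80 and -3.80 on day 1. JAZ repressors of jasmonate signalling were higher in 7 of 12 and lower in none, with medians of 1.10 and 1.18, and the tify gene Os09g0439200 had 99.7 and 86.0 FPKM, against 4.55 and 3.42. Genes of jasmonate synthesis did not go with them, with 2 higher and 2 lower of 17. In ethylene synthesis 4 of 10 genes were higher (Os02g0771600, Os01g0192900, Os09g0451400 and Os01g0580500) and none lower. With a pseudocount of 5 FPKM only 1 of the 10 was higher, and Os01g0192900 and Os09g0451400 were among the calls lost. With the filter taken over the well-watered and day 2 libraries alone, 2 of 7 measured genes were higher. The ACC oxidase gene Os02g0771600 had 196 and 132 FPKM, against 28.0 and 28.3. Auxin signalling and transport, with 11 higher and 12 lower of 66, had medians of 0.04 and 0.06, whose sign turned with the scaling of the libraries.

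Genes for transport across membranes were called in both directions. Potassium and anion channels and transporters were higher in 16 (38.1%) and lower in 4 (9.52%) of 42 measured genes. Of all measured genes, 14.5% were higher and 11.1% lower, so the lower share of this list was near that of all genes. The voltage-dependent anion channel gene Os01g0588200 had 30.1 and 29.8 FPKM on day 2, against 3.55 and 3.59 in well-watered leaves. Of 16 aquaporins, channels for water, 3 were higher (18.75%) and 3 lower (18.75%), shares that rest on few genes. PIP1.1 (Os04g0559700), of the plasma membrane, had 1404 and 1375 FPKM, against 451 and 439, and Os07g0448800 had 380 and 650 FPKM, against 110 and 213. The plasma membrane aquaporin Os09g0541000 was lower, at 81.1 and 53.5 FPKM against 1052 and 773. The highest single aquaporin level was thus held by PIP1.1 on day 2, which was not called on day 1 or day 3. Among metallothioneins, small proteins that bind metals, 4 of 10 were higher and 2 lower. Os11g0704500 (type 1) had 2130 and 1479.6 FPKM, against 495 and 320, and Os05g0202800 (type 3B) had 321 and 310 FPKM, against 2977 and 2716.

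At the leaf surface and the cell wall, lipid transfer, wax and cuticle genes were higher in 24 of 35 measured members and lower in 1 (Os02g0445300), with medians of 1.43 and 1.42, or 0.46 and 0.47 over 63 genes without the filter. Their share of FPKM was 0.831% on day 2, against 0.318% in well-watered total RNA, and 1.07% against 0.442% in mRNA. The lipid transfer gene Os06g0686400 had 32.2 and 36.5 FPKM, against 1.71 and 1.53. Chitinases, glucanases and thaumatin-like proteins, which are known from defence, were higher in 17 of 50 and lower in 2, and the thaumatin-like gene Os03g0663400 had 48.3 and 55.7 FPKM, against 1.71 and 2.36. Class III peroxidases were higher in 14 of 32 and lower in 5. Glutathione S-transferases were higher in 13 and lower in 8 of 38. Catalases, ascorbate peroxidases and superoxide dismutases were higher in 3 (13.6%) and lower in 6 (27.3%) of 22, with medians of -0.26 and -0.38. Among them catalase B (Os06g0727200) had 200.1 and 319 FPKM, against 34.5 and 62.9, while catalase A (Os02g0115700) had 40.3 and 91.5 FPKM, against 313 and 739. Cytochrome P450 genes were called often in both directions, with 30 higher (23.3%) and 38 lower (29.5%) of 129, and the sign of their median turned with the scaling of the libraries. Histones were lower in 13 of 37 and higher in 1 (Os01g0149600), and the histone H1 gene Os04g0253000 had 119 and 103 FPKM, against 974.8 and 998. Genes of the cell cycle and DNA replication were mostly not called, with 3 higher and 8 lower of 84.

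The 12 described genes with the lowest ratios had no common function in their descriptions. Os05g0579600 (chromosome 5, 28845110 to 28846124), a homeodomain-like protein, had 0.779 and 0.244 FPKM on day 2, against 251 and 188 in well-watered leaves. The MYB gene Os05g0567600 had 0.0609 FPKM in total RNA on day 2 and was listed at 0 in mRNA, against 109 and 99.25. Its total RNA level was 2.91 FPKM on day 1 and it was listed at 0 on day 3. Methyl chloride transferase (Os03g0843800) had 1.10 and 0.688 FPKM, against 188 and 139. The FPF1-like gene Os04g0282400 had 6.61 and 4.50 FPKM, against 451 and 368. A phosphoethanolamine methyltransferase (Os05g0548900), of phosphatidylcholine synthesis, had 7.08 and 5.28 FPKM, against 312 and 335.5. The neighbouring receptor kinase genes Os07g0628700 and Os07g0628900 had 11.5 and 3.34 FPKM in total RNA on day 2, against 536 and 161. The glutathione S-transferase Os10g0530500 had 3.13 and 2.00 FPKM, against 187 and 159. All 12 were called lower on day 1 as well, and all 12 again on day 3. Of all measured genes, 2.46% were lower on day 1 and 25.9% on day 3. The days share the well-watered libraries, and the genes were chosen for their fall against them, so the repeated calls are no separate evidence.

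Of 298 measured noncoding genes, 32 were higher (10.7%) and 28 lower (9.4%), shares below those of all genes. Over all measured genes the share called depended on level. Below a mean of 5 FPKM over the 8 libraries, 7.63% were higher and 11.6% lower, and from 100 FPKM 36.8% were higher and 15.7% lower. Noncoding genes were not compared with genes of like level, so the part of level in their shares was not tested. Their ratios differed more between the library kinds, with Pearson's r of 0.861 and an SD of the difference of 0.577. The highest was Os01g0681900 (chromosome 1, 28091236 to 28091512), with 118 and 99.4 FPKM on day 2, against 5.38 and 4.30 in well-watered leaves. Os06g0318800 (chromosome 6, 12359510 to 12360112) had 174 and 179 FPKM, against 21.7 and 22.2, and its total RNA level was 66.8 FPKM on day 1 and 940 FPKM on day 3. Os02g0175950 (chromosome 2, 4150163 to 4150271) had 138 and 111 FPKM, against 15.1 and 11.9. It lies 31 bases from a B-box zinc finger gene, Os02g0176000, whose log2 ratios were 3.20 and 3.25. Os02g0731300 (chromosome 2, 30459392 to 30464135) overlaps the MADS57 gene Os02g0731200. It had 27.8 and 61.5 FPKM on day 2, against 3.77 and 11.2, while the log2 ratios of MADS57 were -0.70 and -0.62. It was called on day 2 and neither on day 1 nor on day 3, with 9.41 and 3.06 FPKM on those days in total RNA. The lowest noncoding gene was Os03g0254250 (chromosome 3, 8134007 to 8134226), with 2.31 and 3.22 FPKM, against 47.6 and 47.0, and the nearest coding gene, Os03g0254200, had log2 ratios of -3.48 and -3.58. Os01g0221800, at 1.73 and 3.05 FPKM against 19.7 and 19.7, lies within a row of 4 adjacent genes that were all lower.

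Noncoding and coding neighbours were compared for all called noncoding genes. For 18 of the 32 higher noncoding genes the nearest measured coding gene was higher too, for 1 it was lower, and for 13 it was not called. For the 28 lower ones the nearest coding gene was lower in 8, higher in 2 and not called in 18. Of all measured coding genes, 14.6% were higher and 11.1% lower. Neighbours of noncoding genes that were not called were not counted. In 5 of the 32 and 2 of the 28 the pair overlaps, and the median distance was 846.5 bases and 2279.5 bases. The kits were strand-specific per the labels, but the sources used here do not say whether strand was used in counting, so reads of overlapping pairs cannot be told apart. Over all measured genes, coding and noncoding, the next one along the chromosome was also higher for 532 of the 2627 higher genes (20.3%, against 14.5% of all genes) and also lower for 318 of 2006 lower genes with a next gene (15.9%, against 11.1%). Rows of at least 4 adjacent called genes numbered 20 on the higher and 5 on the lower side. The longest, 7 higher genes on chromosome 3 (27723754 to 27792047), holds 4 oxalate oxidase genes (germins), and a lower row on chromosome 12 (11262587 to 11357236) holds Rubisco small subunit genes. Copies of such tandem families share sequence, and the sources used here do not say how multiply mapped fragments were counted.

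Set beside the other days, lists differed in how far their day 2 value lay along the series. The LEA list had median log2 ratios of 0.62, 2.01 and 5.23 on days 1, 2 and 3 in total RNA. Clade A phosphatases stood at 1.72, 2.35 and 3.48, and chlorophyll breakdown at 2.10, 2.99 and 3.63, so these were well above 0 from day 1. Light harvesting stood at -0.74, -2.02 and -5.60, and the Calvin cycle at -0.48, -1.30 and -3.43. A-type response regulators stood at -3.80, -4.54 and -3.39. Cytosolic ribosomal proteins stood at 0.58, 0.42 and -0.27, and aquaporins at 0.04, 0.32 and -1.54. The JAZ list stood at 0.52, 1.10 and 3.95.

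**Figure D5:**
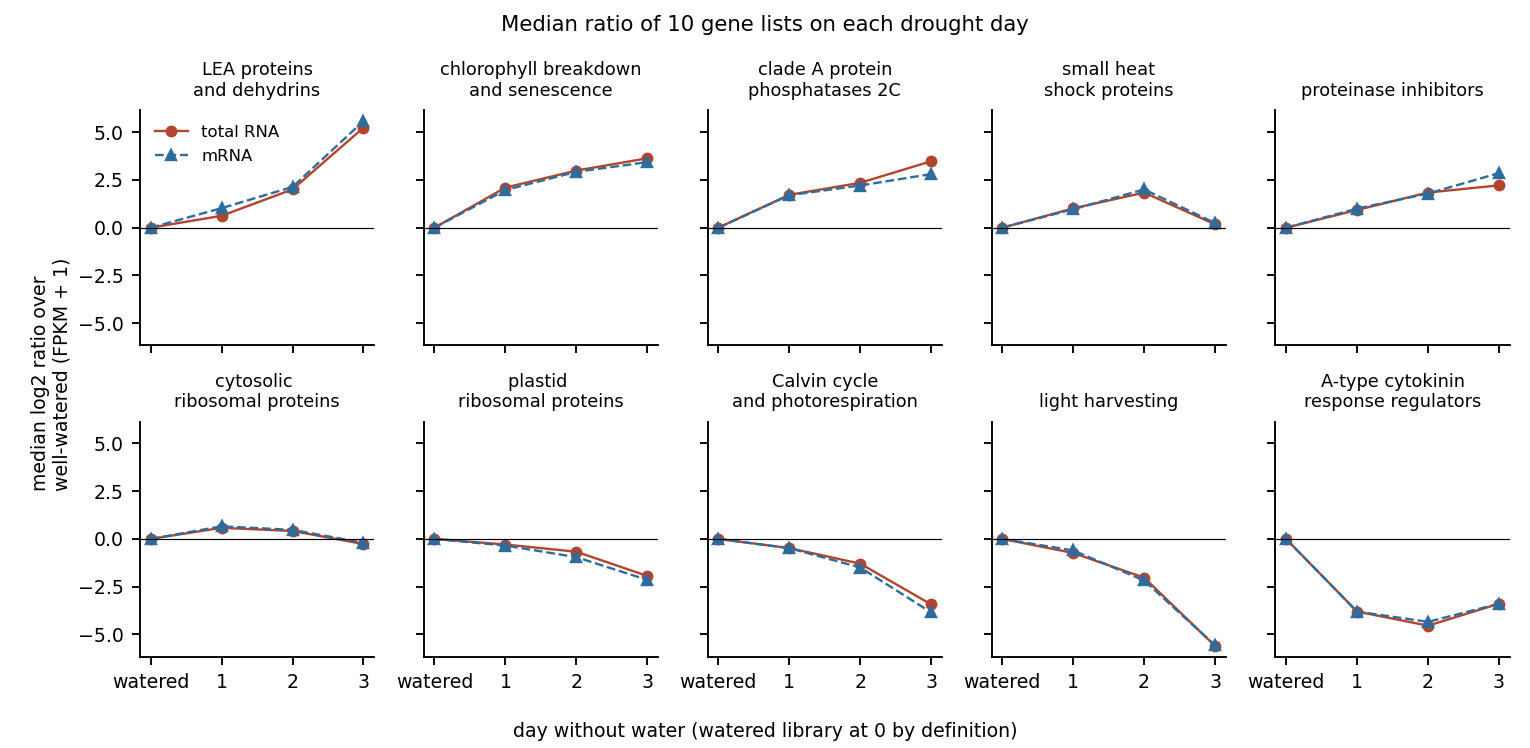
Each panel shows the median log2 ratio over well-watered leaves of a gene list (y axis, FPKM + 1) on days 1, 2 and 3 (x axis), in total RNA (red circles) and in mRNA (blue triangles), with the well-watered library at 0. LEA proteins stood at 2.01 on day 2 and 5.23 on day 3 in total RNA, small heat shock proteins at 1.83 and 0.18, and light harvesting at -2.02 and -5.60.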

How the data were processed

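The authors deposited FPKM per transcript for each library, per the file headers, in 1 table per library kind, with log2 values that are, from the values, quantile-normalized log2(FPKM + 1). StringTie 1.3.3b, HISAT2 2.0.5, Bowtie2 2.2.6, FastQC 0.10.0, Trimmomatic 0.32 and the build IRGSP-1.0 are listed, per the submitters' processing notes, without a role or order. Libraries were strand-specific, per the labels' protocols.

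FPKM was summed per gene. The log2 ratio of FPKM + 1 of day 2 over well-watered was taken within each table for genes whose mean reached 1 FPKM in each. A call needs a ratio of at least 1, or at most -1, in both. With 1 library per group there is no test. Noncoding genes follow the deposited type.

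Gene lists (62 with a measured gene) came from loci recalled from general knowledge or from words in the descriptions. Members, lists and rules were chosen with earlier results of these data known, and so they support nothing independently. Named genes are the 12 highest and 12 lowest described genes by the smaller ratio, up to 3 called members per list, all members of some short locus lists, and the 6 highest and 6 lowest noncoding genes. Not all are printed. Others, including the few called members of a list, genes highest or lowest on day 2, neighbours and transcripts, were chosen after their values were seen. The calculation was tested on simulated data. Sequences and promoter motifs were not analysed here. The software was scipy 1.17.1, numpy 2.4.6 and pandas 2.3.3 under Python 3.11.15.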

Additional observations from a re-analysis of the deposited data

Results flagged for a closer look

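In the day 2 comparison the library kinds opposed each other in 3 genes, which were at least 2-fold higher in one kind and at least 2-fold lower in the other. The difference between the kinds was not tested, since each rests on 1 library per group. Os04g0676700 had a log2 ratio of -1.583 in total RNA (8.24 FPKM on day 2, against 26.7 in well-watered leaves) and of 2.191 in mRNA (65.1 against 13.5). Os05g0499800, a UDP-glycosyltransferase, had 1.158 in total RNA (21.6 against 9.13 FPKM) and -2.05 in mRNA (1.34 against 8.70 FPKM). Os09g0131400, similar to tobamovirus multiplication 3, had -1.239 in total RNA (4.23 against 11.3 FPKM) and 1.01 in mRNA (28.9 against 13.8 FPKM). All 3 have more than 1 annotated transcript, and how fragments were divided among them was not tested.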

How the results depend on the processing

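The count of higher genes was 2627 and ranged from 1643 with a pseudocount of 5 FPKM to 3053 with 0.1, and that of lower genes was 2008 and ranged from 1187 to 2443 under the same settings. The other settings were no filter, a mean of at least 5 FPKM, a mean of at least 1 FPKM over the well-watered and day 2 libraries alone, median-ratio scaling, the deposited quantile-normalized values, and each library kind alone. They kept both counts within 1.5 times of these. Noncoding calls (32 higher, 28 lower) were 15 and 11 under the larger pseudocount and 18 and 14 under the stricter filter of 5 FPKM. The cause was not tested beyond the smaller ratios and fewer genes that these settings give by construction. Scaling brought the split nearer to even. Without scaling, 56.7% of the called genes were higher. Under median-ratio scaling 2504 genes were higher and 2095 lower, so that 54.4% of the called genes were higher. Under the quantile-normalized values 2378 were higher and 2251 lower, and 51.4% of the called genes were higher. The quantile-normalized values shifted the median gene to -0.01 in total RNA and 0.00 in mRNA, against 0.11 and 0.06. Named genes and list medians were not checked with each library kind alone. Of 218 called named genes, 196 were called under every other setting in which they were measured. The other 22 lost the call in some, mostly with a pseudocount of 5, and none changed sign. Of 62 list medians, 48 moved by less than 1.5-fold under every setting checked. Besides those given with their lists above, the medians of class III peroxidases (0.90 in total RNA and 0.72 in mRNA) ranged from 0.11 and 0.07 without the filter to 2.44 and 2.76 under that of 5 FPKM. Without the filter, medians were 0.20 and 0.26 for proteinase inhibitors (1.84 and 1.79 with it), 0.07 and 0.05 for NAC factors (0.74 and 0.73) and 0.10 and 0.09 for trehalose, galactinol and raffinose genes (1.03 and 0.73). Amino acid breakdown, the glyoxylate cycle, leaf markers, metallothioneins and seed storage proteins moved as far in at least 1 setting and kept their sign. The median sign of bZIP factors, homeobox factors, cytochrome P450s, UDP-glycosyltransferases, phenylpropanoid enzymes, auxin genes and tRNA synthetases turned in some setting, so no direction is given for them. No paired analysis was possible because each group has 1 library. LHY, ABA8ox1 and the ribosomal protein S29 gene Os11g0634500 lost their call under both scalings.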

Other observations

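Of 2432 genes with at least 2 measured annotated transcripts, 16 had a transcript called higher and another called lower on day 2. In the ACC oxidase gene Os02g0771600, of ethylene synthesis, the transcript Os02t0771600-02 had 194 and 130 FPKM on day 2 (total RNA, then mRNA), against 0.479 and 0.585 in well-watered leaves. The transcript Os02t0771600-01 had 1.54 and 1.27 FPKM, against 27.5 and 27.7. In the proline synthesis gene P5CS2 (Os01g0848200), which was not called as a gene, Os01t0848200-02 had 6.38 and 6.62 FPKM, against 0.287 and 0.181, and Os01t0848200-01 had 0.344 and 0.117 FPKM, against 3.55 and 5.33. In the phosphate transporter gene Os10g0444700, Os10t0444700-02 had 63.3 and 47.0 FPKM on day 2, against 1.78 in well-watered mRNA, and was listed at 0 in well-watered total RNA, while Os10t0444700-01 had 1.73 and 0.842 FPKM, against 31.6 and 32.6. A phosphoenolpyruvate carboxylase gene (Os02g0244700) was split in the same way, with Os02t0244700-01 at 93.4 and 63.6 FPKM, against 0.848 and 0.796, and Os02t0244700-04 at 1.96 and 3.85 FPKM, against 94.3 and 74.1. In each of these 4 genes the annotated transcript that led in well-watered leaves was not the one that led on day 2. How the authors' software divided fragments among transcripts of a gene was not tested.

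Of the 13 genes at least 2-fold below every other library of their kind on day 2, the omega-3 fatty acid desaturase gene Os03g0290300 had 108 FPKM in well-watered leaves and 70.4, 21.99 and 81.3 FPKM on days 1, 2 and 3 in total RNA, and 83.4, 47.9, 14.4 and 76.9 FPKM in mRNA. Os01g0635550, a zinc finger homeodomain gene, had 66.5, 18.1, 6.01 and 24.6 FPKM in total RNA over the same series. A phytoene synthase gene (Os12g0626400), of carotenoid synthesis, had 71.5, 47.2, 22.4 and 46.2 FPKM. The clock genes PRR1 and PRR95 were among these 13 as well, and the part of the clock in the other 11 was not tested.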
